A study of Homo sapiens with 4 samples.

Results

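The regions described are the SMC1 anchors of human chromosome 1 in a neuroblastoma cell line, divided by position into the distal short arm, the proximal short arm and the long arm. An anchor is a stretch of DNA at which the paired reads of the assay pile up. All anchors on chromosome 1 were taken, 4524 of 39507 in the whole series. By the midpoint of the anchor in hg19, 938 lay below 36 Mb (distal short arm), 1399 between 36 and 121.5 Mb (proximal short arm) and 2187 above 142 Mb (long arm). None lay between 121.5 and 142 Mb. Membership used position alone and no measured value, though the segments and rules were chosen with earlier results of these data known.

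The study compared cells of the neuroblastoma line Kelly that were resistant to TAE684, an inhibitor of the kinase ALK. They were kept in 1 µM of it and infected with a short hairpin construct against BORIS (shBORIS) or a control construct (shLUC). Infection lasted 24 h and was followed by 48 h of selection. All samples, controls included, came from these resistant cells, so no group without resistance enters here. Each group had 2 libraries, and the authors deposited 1 pooled table per group, so no spread between replicates could be computed.

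SMC1 is a subunit of cohesin, the ring complex that holds stretches of chromatin together as loops. ChIA-PET enriches fragments bound by one protein, joins fragments that lie close together and sequences the ends of every joint, which count together as a paired-end tag (PET). BORIS (gene name CTCFL) is related to CTCF, the DNA-binding protein that halts cohesin at loop ends. In neuroblastoma, loss of the distal short arm and gain of the long arm of chromosome 1 are recurrent copy number changes.

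A PET with both ends on chromosome 1 is intrachromosomal, and one with the other end on another chromosome is interchromosomal. Joins between chromosomes include random ligation, so their number per anchor follows how much DNA of an anchor enters the reaction, and it served as a proxy for copy number. It also follows the enrichment at the anchor. In all, shLUC had 434975 PETs and shBORIS 449979, of which 33.6% and 36.2% were intrachromosomal. Chromosome 1 had 22263 intrachromosomal PETs in shLUC and 25094 in shBORIS, and 67737 and 67712 interchromosomal PETs. Intervals below are exact 95% intervals unless said otherwise and cover counting error only, as if each PET were an independent molecule. PCR reads without molecular identifiers are not independent molecules, so the intervals may be too narrow. Every test between shBORIS and shLUC compares 2 pools, not the conditions.

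The 3 segments differed in how densely anchors were spaced. There were 26.7 anchors per Mb on the distal short arm, 16.4 on the proximal short arm and 20.5 on the long arm. The median distance between neighbouring anchors was 19.4 kb, 28.5 kb and 19.1 kb, against 28.5 kb on the other chromosomes. Of the other 22 chromosomes, 2 had more anchors per Mb than the distal short arm, and chromosome 17 had the most, 29.7. The largest stretch without an anchor, 21.1 Mb, ran from chr1:121482397 to chr1:142537774, around the centromere. Anchors were widest on the long arm. The median width was 1193 bp on the distal short arm, 1213 bp on the proximal short arm and 1268 bp on the long arm, and anchors of 3 kb or more made up 1.07%, 1.43% and 3.11%.

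Interchromosomal PETs per anchor were lowest on the distal short arm and highest on the long arm. Anchors of the distal short arm had 13.0 each in shLUC and 13.5 in shBORIS. The proximal short arm had 14.1 and 13.8. The long arm had 16.4 and 16.3. The spread over anchors was wide and overlapped throughout, with a median and quartiles of 10 (6 to 18), 11 (7 to 18) and 12 (7 to 20.5) in shLUC. Against the proximal short arm, the ratio of the distal short arm was 0.923 (0.903 to 0.944) in shLUC and 0.979 (0.957 to 1.00) in shBORIS, so the interval stayed below 1 in the shLUC table alone. The ratio of the long arm was 1.17 (1.15 to 1.19) in shLUC and 1.18 (1.16 to 1.20) in shBORIS.

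Anchor width moved with these differences. On chromosome 1 in shLUC, anchors under 1 kb had 5.59 interchromosomal PETs each, those of 1 to 2 kb 15.5, those of 2 to 3 kb 32.0 and those of 3 kb or more 54.2. Within the class of 1 to 2 kb, which held 63.9% of the chromosome's anchors, the segments lay at 15.1, 15.3 and 15.9 in shLUC and at 15.7, 15.0 and 15.6 in shBORIS. When each anchor was set against the mean of all anchors of similar width in the genome, the ratio of the distal to the proximal short arm became 0.979 in shLUC and 1.04 in shBORIS. That of the long arm became 1.05 and 1.05. With width allowed for, the ratio of the distal short arm was below 1 in shLUC and above 1 in shBORIS, and that of the long arm stayed above 1 in both. No interval was computed for these adjusted ratios. An anchor is where reads pile up, so its width may itself follow the amount of DNA. Allowing for width, here and below, may therefore remove part of a difference in copy number, which was not tested.

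**Figure D1:**
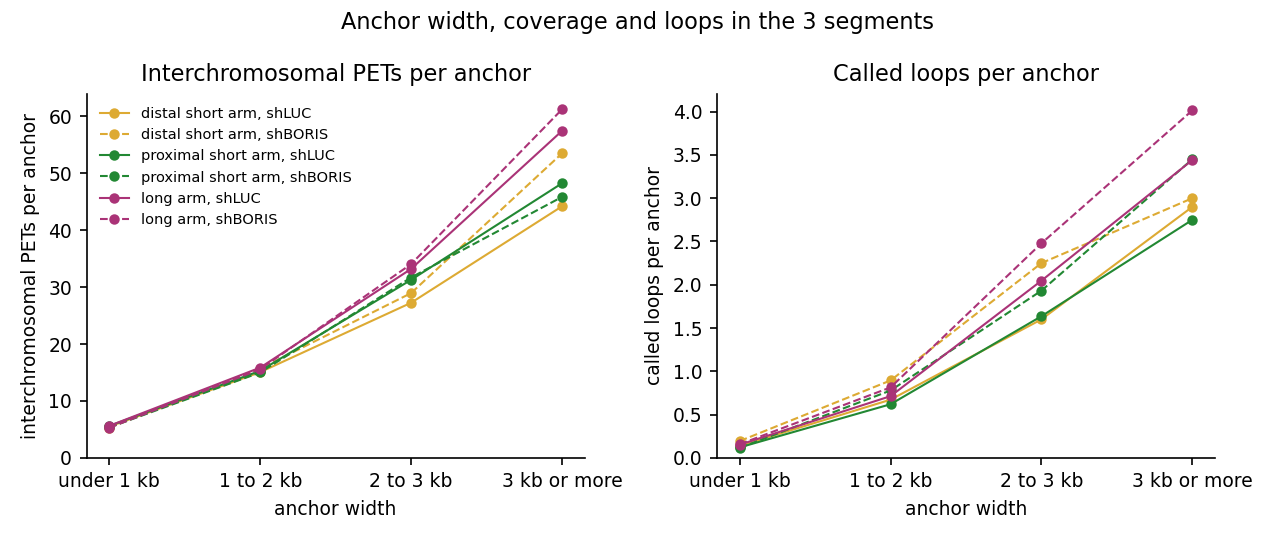
Interchromosomal PETs per anchor (left) and called loops per anchor (right) on the y axes, by class of anchor width on the x axis. Each point is the mean over the anchors of 1 segment in 1 pooled table (solid lines shLUC, dashed lines shBORIS). Both measures climb with width in all 3 segments, and the segments lie close together for anchors of 1 to 2 kb, from 15.0 to 15.9 interchromosomal PETs.

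The segments were also placed among the other 22 chromosomes. Chromosome 1 leaves fewer possible partners on other chromosomes than a smaller chromosome does, which by itself lowers its interchromosomal count, so the value was corrected for both width and partners. The corrected values, where 1 is the genome mean, were 0.972 in shLUC and 1.02 in shBORIS for the distal short arm, 0.993 and 0.980 for the proximal short arm, and 1.04 and 1.03 for the long arm. The other chromosomes ranged from 0.955 to 1.06 in shLUC and from 0.917 to 1.09 in shBORIS, so all 3 segments lay inside the range of the others in both tables. Of the 22, 1 was above the long arm in shLUC and 2 in shBORIS. Without the correction for partners, all 3 segments lay below every other chromosome in shLUC, at 0.904, 0.924 and 0.966.

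Along the chromosome, in windows of 5 Mb with at least 20 anchors, the corrected level over both tables ran from 0.916 to 1.13 in the 7 windows of the distal short arm, from 0.775 to 1.14 in 17 windows of the proximal short arm and from 0.845 to 1.16 in 21 windows of the long arm. The ranges overlapped. By PETs per anchor summed over the tables, the highest window was at 110 to 115 Mb, with 42.8, and the lowest was at 70 to 75 Mb, with 17.4. Both lie on the proximal short arm, so windows within that segment differed more than the segments' means did.

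**Figure D2:**
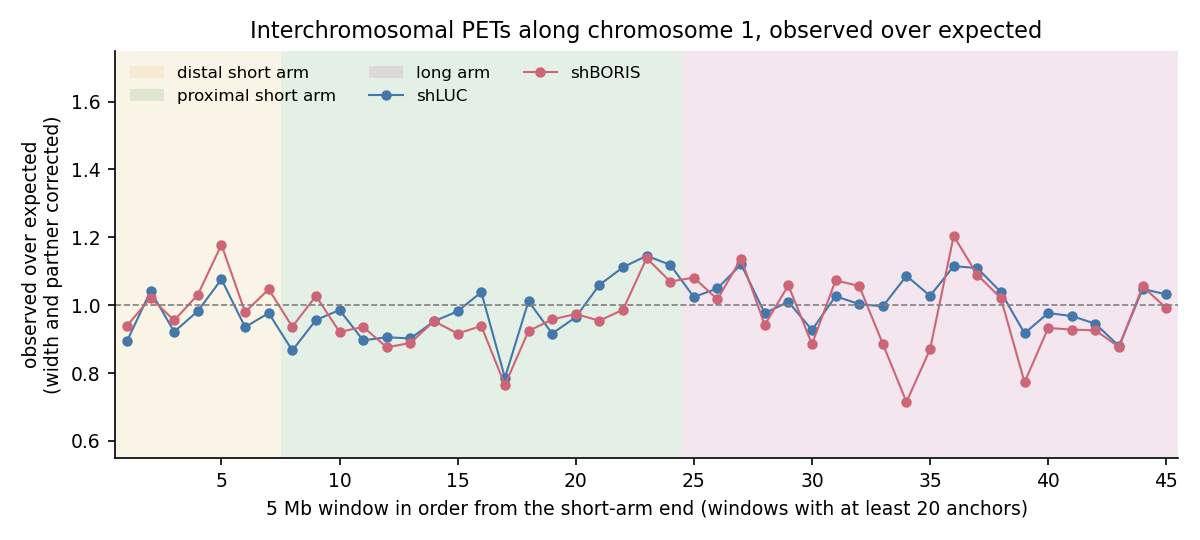
Interchromosomal PETs over the number expected, corrected for anchor width and partners (y axis), for each 5 Mb window of chromosome 1 in order from the end of the short arm (x axis). Lines are the 2 pooled tables and shading marks the segments, with the window of 35 to 40 Mb shown as proximal short arm. Windows of the 3 segments overlap in level, and no step separates the distal short arm, at 0.916 to 1.13 over both tables, from the rest.

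Intrachromosomal contacts per anchor were most numerous on the long arm. The distal short arm had 8.34 intrachromosomal PET ends per anchor in shLUC and 10.2 in shBORIS, the proximal short arm 8.73 and 9.54, and the long arm 11.2 and 12.5, against 7.08 and 7.89 on the other chromosomes. The ratio of the long arm to the proximal short arm was 1.28 (1.25 to 1.32) in shLUC and 1.31 (1.27 to 1.34) in shBORIS, and 1.11 and 1.12 after allowing for anchor width. That of the distal short arm was 0.956 (0.920 to 0.992) in shLUC and 1.07 (1.03 to 1.11) in shBORIS. Most of these PETs have both ends in 1 segment, so these intervals count a PET once and are normal approximations on the log scale. After allowing for width it was 1.03 in shLUC, on the other side of 1, and 1.16 in shBORIS.

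An intrachromosomal pair counted as a loop from 3 PETs upward, provided that its deposited Bayes probability reached 0.9. On chromosome 1, 1539 loops were called in shLUC, 11.3% of the pairs listed there, and 1855 in shBORIS, 12.5%, against 12.9% and 14.1% over the whole tables. The chromosome's shares count the pairs between segments, 2928 in shLUC with 0 called and 3062 in shBORIS with 1 called. Of the pairs within a segment, 15.1% and 16.4% were called on the distal short arm. The proximal short arm had 13.8% and 16.1%, and the long arm 14.4% and 15.5%. Within the distal short arm there were 269 and 357 loops, within the proximal short arm 402 and 492, and within the long arm 868 and 1005. Per 100 anchors this was 28.7 and 38.1, 28.7 and 35.2, and 39.7 and 46.0. The long arm therefore had 1.38 (1.23 to 1.56) times the loops per anchor of the proximal short arm in shLUC and 1.31 (1.17 to 1.46) times in shBORIS. The interval for the distal short arm included 1 in both tables (0.852 to 1.17 and 0.942 to 1.24). These ratios do not allow for anchor width. Among anchors of 1 to 2 kb, with a loop counted at both its anchors, shLUC had 0.672, 0.619 and 0.713 loops per anchor in the 3 segments. In shBORIS the values were 0.894, 0.778 and 0.814, so the distal short arm was then highest.

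Set against the number of anchor pairs that could have formed a loop, the order changed. Per 1000 pairs of anchors closer than 2 Mb, the distal short arm had 5.18 loops in shLUC and 6.87 in shBORIS, the proximal short arm 7.21 and 8.82, and the long arm 7.27 and 8.42. The distal short arm had 0.719 (0.614 to 0.841) times the loops per available pair of the proximal short arm in shLUC and 0.780 (0.678 to 0.895) times in shBORIS. For the long arm the intervals included 1 (0.896 to 1.14 and 0.856 to 1.07). Of the other 22 chromosomes, 3 had fewer loops per available pair than the distal short arm in shLUC and 7 in shBORIS, so a low value is found elsewhere too.

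The distal short arm had fewer PETs per available pair at each distance up to 2 Mb in shLUC, and the gap was widest at 500 kb to 2 Mb. Under 20 kb it had 916 PETs per 1000 available anchor pairs in shLUC, against 1095 on the proximal short arm, a ratio of 0.837 (0.757 to 0.926). At 20 to 100 kb the ratio was 0.848 (0.784 to 0.917). At 100 to 500 kb the values were 96.6 and 159, a ratio of 0.607 (0.563 to 0.654). At 500 kb to 2 Mb they were 3.17 and 9.66, a ratio of 0.328 (0.264 to 0.404). In shBORIS these ratios were 0.913 (0.835 to 0.997), 0.948 (0.882 to 1.02), 0.682 (0.637 to 0.731) and 0.459 (0.381 to 0.552), so the interval at 20 to 100 kb included 1. The long arm had 131 PETs per 1000 pairs at 100 to 500 kb and 7.61 at 500 kb to 2 Mb in shLUC, between the other segments. Above 2 Mb the segments' different lengths set which distances are possible, and the values were 0.390, 0.432 and 0.611. The other chromosomes together had 123 and 7.97 PETs per 1000 pairs at 100 to 500 kb and at 500 kb to 2 Mb in shLUC, above the distal short arm at both. Single chromosomes were compared by the share of anchor pairs closer than 2 Mb that had a PET. In shLUC this was 3.14% on the distal short arm and 4.50% on the proximal short arm. Chromosomes 9, 17 and 19 were lower, at 2.56%, 3.02% and 2.45%, so a low value was not particular to the distal short arm.

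**Figure D3:**
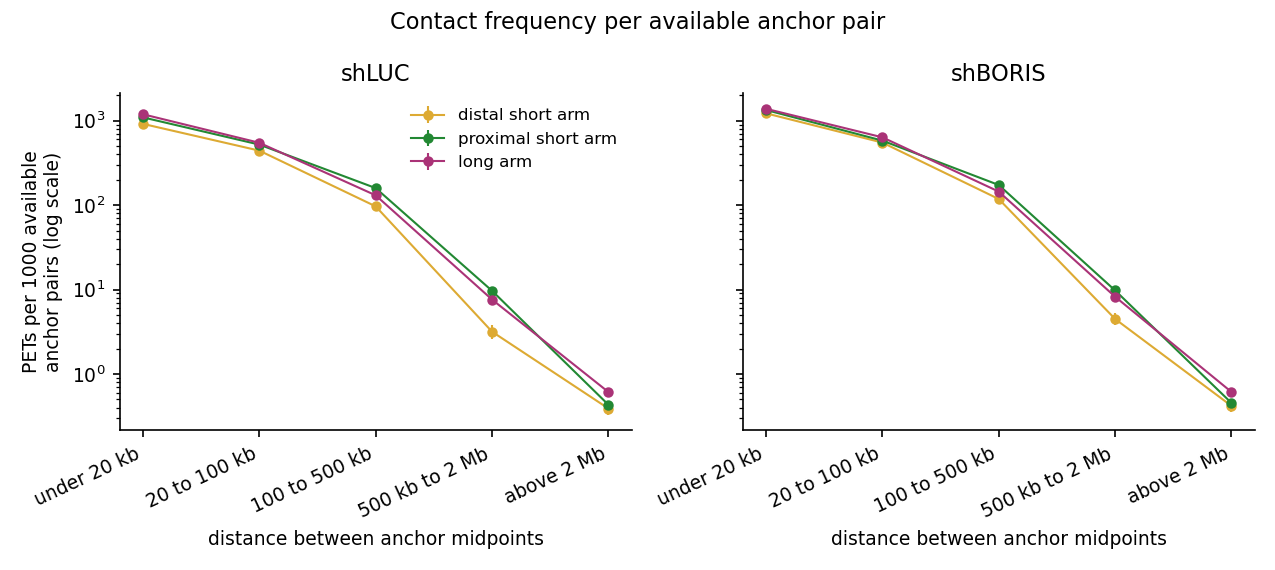
Intrachromosomal PETs per 1000 available anchor pairs (y axis, log scale) by distance between anchors (x axis) in the shLUC table (left) and the shBORIS table (right). Lines are the 3 segments and bars are 95% Poisson intervals. The line of the distal short arm falls below the others most at 500 kb to 2 Mb, where it is at 3.17 in shLUC against 9.66 on the proximal short arm.

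Called loops were short in every segment. Within the distal short arm, called loops had a median length of 56.2 kb for shLUC and 51.3 kb for shBORIS. They were 74.4 and 63.8 kb on the proximal short arm, and 59.3 and 56.6 kb on the long arm. The upper quartile on the proximal short arm, 176 kb in shLUC, was above those of the distal short arm, 125 kb, and the long arm, 143 kb. Loops over 500 kb numbered 0 of 269 in shLUC and 3 of 357 in shBORIS on the distal short arm. They numbered 7 of 402 and 12 of 492 on the proximal short arm, and 20 of 868 and 31 of 1005 on the long arm. Over the genome they were 371 of 11236 and 426 of 13111, a larger share than in any of the 3 segments in either table. The longest loops spanned 499 and 1081 kb, 887 and 1300 kb, and 1048 and 1482 kb. Neighbouring anchors with none between them made up 32.7% of loops on the distal short arm, 32.8% on the proximal short arm and 29.5% on the long arm in shLUC, and 37.0%, 35.0% and 28.4% in shBORIS.

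Of the anchors with 5 or more loops, the long arm had 49 in shLUC and 89 in shBORIS. There were 4 and 17 on the distal short arm, and on the proximal short arm 13 and 27. As shares of each segment's anchors these were 2.24% and 4.07%, 0.426% and 1.81%, and 0.929% and 1.93%. On the other chromosomes together they were 1.17% and 1.75%. Anchor width was not allowed for in these shares. Of the 22, 3 were above the long arm in shLUC and 2 in shBORIS, with chromosome 17 the highest at 3.74% and 5.20%.

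The strongest loop of each segment, by PETs summed over the tables, was listed in both. On the distal short arm it joined chr1:24525257-24526563 and chr1:24716020-24719745, 192 kb apart, with 24 PETs in shLUC and 32 in shBORIS. On the proximal short arm it joined chr1:113256755-113262423 and chr1:113345455-113348443, 87.4 kb apart, with 42 and 52 PETs. On the long arm it joined chr1:156626084-156631646 and chr1:156646472-156648875, 18.8 kb apart, with 51 and 46 PETs. The tables differed little at any of these loops: the scaled ratios were 1.20 (0.682 to 2.12), 1.11 (0.725 to 1.71) and 0.808 (0.531 to 1.23).

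The segments had unequal numbers of loops to rank, 269, 402 and 868 in shLUC, and the median loop had 4 PETs in each. The next loops in rank had fewer PETs on the distal short arm than elsewhere. There, chr1:27370588-27373162 with chr1:27423318-27424691 had 20 and 21 PETs, and chr1:31273904-31275581 with chr1:31383410-31385313 had 20 and 20. On the proximal short arm, chr1:110749226-110751613 with chr1:110853860-110856360 had 39 and 44 PETs, and chr1:54871828-54874435 with chr1:54953155-54957046 had 27 and 35. On the long arm, chr1:204957786-204961956 with chr1:205029594-205032492 had 45 and 52 PETs, and chr1:201527979-201530617 with chr1:201671546-201675429 had 42 and 41. None of these 9 loops passed the test between the tables, in which their lowest adjusted p was 0.985 by Fisher's exact test.

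By called loops summed over the tables, 2 anchors of the long arm led with 18 each. The first, chr1:156626084-156631646, was 5563 bp wide and had 6 loops in shLUC and 12 in shBORIS. The most in shLUC alone was 9, at chr1:156827942-156831334 and chr1:182569347-182574407 of the long arm, which were picked out after their values were seen and had 8 each in shBORIS. All 6 shLUC loops were also called in shBORIS. The other 6 had 0 to 2 PETs in shLUC and 3 to 6 in shBORIS, so most of them crossed the minimum of 3 PETs by a few reads. Its 2 strongest partners were chr1:156646472-156648875, described above, and chr1:156593600-156598117, with 29 PETs in shLUC and 42 in shBORIS. The second of the pair with 18, chr1:156694739-156697376, had 8 loops in shLUC and 10 in shBORIS, and the 2 anchors were joined by 2 and 3 PETs. On the distal short arm, chr1:23880191-23887461, which at 7271 bp was the widest anchor of that segment, had 6 and 7 loops, and chr1:27932002-27934352 had 4 and 6. On the proximal short arm, chr1:50736184-50739437 had 6 and 7, and chr1:110853860-110856360 had 5 and 7.

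With each kind of PET scaled to its own total, the distal short arm differed between shBORIS and shLUC, and the other segments did not pass the test. PETs with both ends in the distal short arm numbered 3200 in shLUC and 4013 in shBORIS, with PETs to the other segments left out. Divided by each table's intrachromosomal total, the ratio of shBORIS to shLUC was 1.12 (1.07 to 1.18; adjusted p = 3.57e-06, Fisher's exact test adjusted over 25 regions, which are the 3 segments and the other 22 chromosomes). Of the 25 values it was the highest, followed by chromosome 19 at 1.12 and chromosome 16 at 1.10, but the rank compares unlike measures. A whole chromosome counts all its intrachromosomal PETs, and a segment leaves out those to the other segments. With those included, the distal short arm had 7824 intrachromosomal PET ends in shLUC and 9590 in shBORIS, and its rank was not computed. With 60% of the 25 regions past the threshold of 0.05, passing it did not set the distal short arm apart. The proximal short arm, with 5082 and 5645 PETs, had a ratio of 0.996 (0.958 to 1.03), and the long arm, with 11043 and 12361, a ratio of 1.00 (0.978 to 1.03). The ratio of the distal short arm was 1.13 times that of the proximal short arm (adjusted p = 0.000229) and 1.12 times that of the long arm (adjusted p = 0.000161), by Fisher's exact test adjusted over 6 such comparisons. The long and the proximal short arm differed by 1.01 times (adjusted p = 0.744 by the same exact test).

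Interchromosomal PETs moved in the same direction by less. On the distal short arm they numbered 12185 in shLUC and 12671 in shBORIS, a scaled ratio of 1.05 (1.02 to 1.07; adjusted p = 0.00115, Fisher's exact test), where 48% of the 25 regions passed. The proximal short arm had 0.987 (0.968 to 1.01) and the long arm 1.00 (0.988 to 1.02). Divided by this ratio, the intrachromosomal ratio of the distal short arm was 1.07, against 1.01 and 1.00 for the other segments. Scaling to the total of both kinds of PET multiplies every intrachromosomal ratio by 1.08 (0.11 on the log2 scale) and every interchromosomal ratio by 0.960. The interchromosomal ratio of the distal short arm was then 1.01 and did not pass. The intrachromosomal ratios of the proximal short arm, 1.07, and of the long arm, 1.08, were then above 1 and passed.

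**Figure D4:**
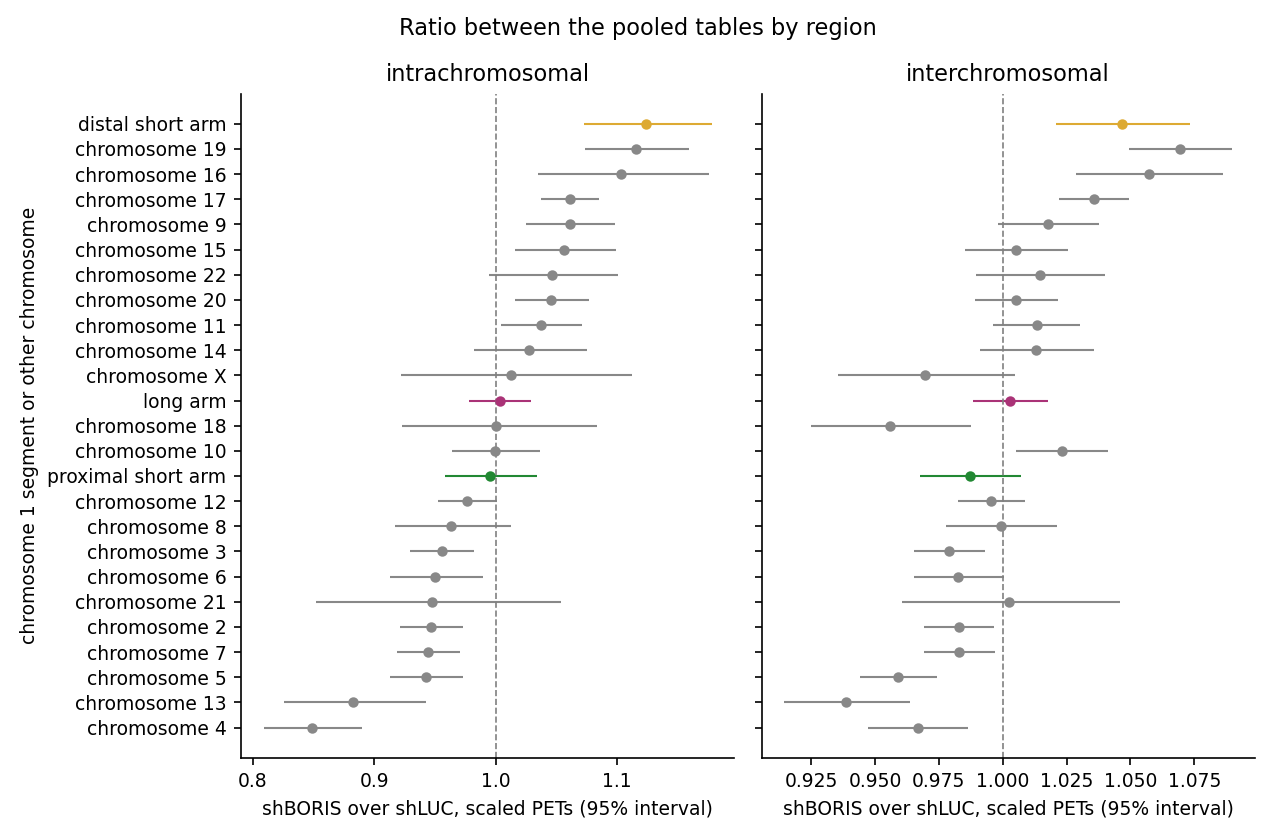
Scaled ratio of shBORIS to shLUC PETs (x axes) for the 3 segments of chromosome 1 and the other 22 chromosomes (y axis), intrachromosomal on the left and interchromosomal on the right. Points are ratios of 2 pooled tables and bars are exact 95% intervals. The distal short arm is highest on the left at 1.12, while the proximal short arm and the long arm lie at 0.996 and 1.00. On the left, segments count PETs with both ends in the segment and chromosomes all intrachromosomal PETs, so the rank compares unlike measures.

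Among anchors with at least 10 summed intrachromosomal PETs, 352 of 600 on the distal short arm (58.7%) had the higher scaled value in shBORIS. Those of the proximal short arm numbered 417 of 843 (49.5%), on the long arm 726 of 1483 (49.0%), and over the genome 50.3%. For interchromosomal PETs the shares were 56.8%, 51.2% and 53.0%, against 52.5% over the genome. The difference on the distal short arm was thus spread over many anchors. Pairs closer than 20 kb gave a ratio of 1.20 (1.08 to 1.32), and those from 20 to 100 kb gave 1.12 (1.03 to 1.21). The next class, to 500 kb, gave 1.10 (1.01 to 1.19), and that up to 2 Mb gave 1.27 (0.996 to 1.62). Beyond 2 Mb the ratio was 0.962 (0.766 to 1.21). On the long arm the ratio was 1.04 (0.982 to 1.10) under 20 kb and 0.898 (0.833 to 0.968) above 2 Mb.

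Of the loops called in shLUC, 167 of 269 on the distal short arm (62.1%) were also called in shBORIS, 242 of 402 on the proximal short arm (60.2%) and 493 of 868 on the long arm (56.8%). Over the genome 56.0% were. As shares of the shBORIS loops the same loops were 46.8%, 49.2% and 49.1%, against 48.0% over the genome. Among loops with at least 10 PETs in shLUC, 22 of 23, 36 of 36 and 97 of 98 were also called in shBORIS, against 950 of 975 over the genome. Loops called in 1 table alone were therefore mostly those with few PETs.

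Windows of 5 Mb showed where along the chromosome the tables differed; this test was added after the data were seen. PETs with both ends in the window had a ratio above 1 in all 7 windows of the distal short arm, from 1.02 to 1.24. The same held for 7 of 17 windows on the proximal short arm and 9 of 21 on the long arm. By Fisher's exact test adjusted over 561 windows of the genome, of which 2.14% were higher in shBORIS and 3.03% lower, 3 windows of chromosome 1 were higher and 1 was lower. The window at 15 to 20 Mb had 456 PETs in shLUC and 627 in shBORIS, a ratio of 1.23 (adjusted p = 0.0189, exact test). The window at 165 to 170 Mb had 296 and 431, a ratio of 1.31 (adjusted p = 0.0158, exact test).

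The other 2 windows kept about the same ratio without their top anchor, but no longer passed with the fewer PETs left. The window at 110 to 115 Mb had 915 and 1171 PETs, a ratio of 1.15 (adjusted p = 0.0370, exact test), and 1.11 without chr1:113256755-113262423, which did not pass (adjusted p = 0.184). The window at 185 to 190 Mb had 86 and 56 PETs, a ratio of 0.584 (adjusted p = 0.0370, exact test), and 0.602 without chr1:188139068-188140875 (adjusted p = 0.123). At 110 to 115 Mb 82 of 146 anchors were higher in shBORIS, and at 185 to 190 Mb 30 of 41 were lower.

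**Figure D5:**
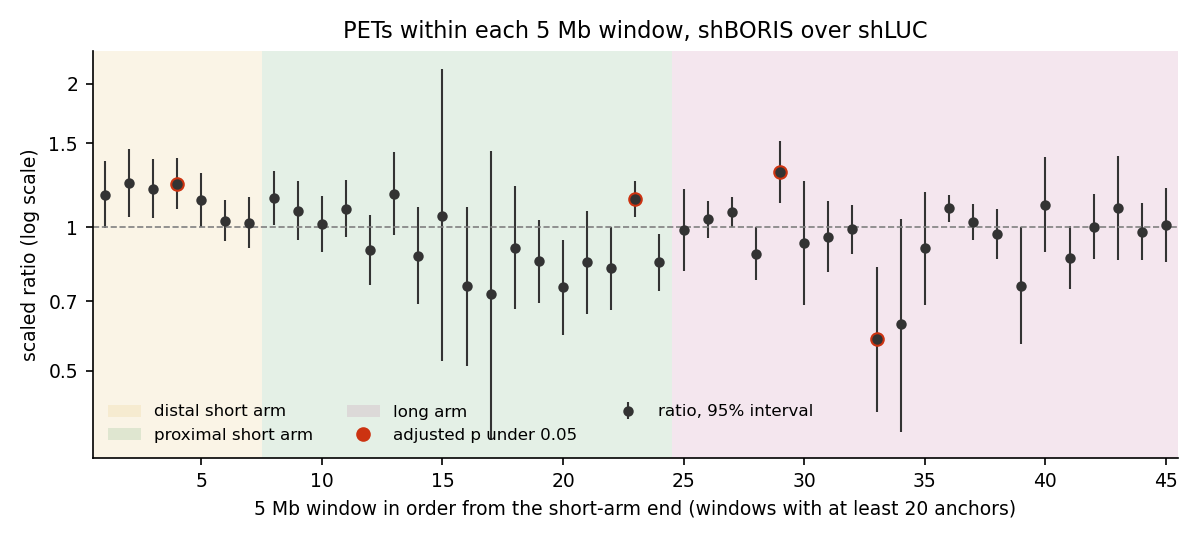
Scaled ratio of shBORIS to shLUC PETs with both ends in the same 5 Mb window (y axis, log scale) for windows of chromosome 1 in order from the end of the short arm (x axis). Bars are exact 95% intervals, red points passed the test and shading marks the segments, with the window of 35 to 40 Mb shown as proximal short arm. All 7 windows of the distal short arm lie above 1, from 1.02 to 1.24.

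Interchromosomal PETs differed in 2 windows, both on the long arm. At 190 to 195 Mb they numbered 419 in shLUC and 275 in shBORIS, a ratio of 0.661 (adjusted p = 2.3e-05, Fisher's exact test over 591 windows), where 1.35% of windows were higher and 0.846% lower. Of its 24 anchors, 20 were lower in shBORIS. At 200 to 205 Mb they numbered 4781 and 5193, a ratio of 1.09 (adjusted p = 0.000943 by the same exact test), with 141 of 244 anchors higher. Over the 45 windows with at least 20 anchors, the number of anchors in a window went with the log2 ratio of shBORIS to shLUC, with Pearson's r of 0.55 for interchromosomal PETs and 0.61 for intrachromosomal PETs (Spearman's rho of 0.58 and 0.66). These windows share the same pair of tables and differ in depth, and the values describe them only.

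No single contact of chromosome 1 passed the test between the tables. Of 597 pairs with at least 10 summed PETs, 0 passed by Fisher's exact test adjusted over all 3951 pairs of the genome, of which 0.0506% were higher in shBORIS and 0% lower. At an unadjusted p under 0.05, 15 were higher and 17 lower, against 3.06% and 2.63% of pairs in the genome. With an assumed dispersion of 0.1, 0 passed as well. The depth limits this result. The median pair tested had 14 PETs, and even if all 14 lay in 1 table, the smallest p it could give was 2.78e-05, or 0.110 when adjusted as the only such pair among those tested. Of the 597 pairs, 24.8% had 20 or more PETs. A difference at most single pairs was therefore not detectable at this depth.

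The pairs with the smallest p were the following. On the proximal short arm, chr1:113256755-113262423 and chr1:113351148-113352781 had 2 PETs in shLUC and 17 in shBORIS, a ratio of 7.62 (1.81 to 68.0; adjusted p = 0.313, exact test). Of the distal short arm, chr1:26278962-26280436 and chr1:26322925-26325675 had 3 and 14, and chr1:27018288-27020247 and chr1:27021472-27022750 had 19 and 6. Also on the proximal short arm, chr1:94094444-94096111 and chr1:94278943-94280488 had 17 and 5. On the long arm, chr1:244130401-244132103 and chr1:244136233-244138922 had 1 and 10, and chr1:212837737-212839694 and chr1:212955320-212956589 had 9 and 1. Their adjusted p-values ran up to 0.678 by the exact test.

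Of 2926 anchors tested for intrachromosomal PETs, 0 passed by Fisher's exact test, against 0.0153% higher and 0.0051% lower among all anchors tested. At an unadjusted p under 0.05, 100 were higher and 93 lower, against 3.25% and 3.17% of anchors in the genome, and 0 passed with an assumed dispersion of 0.1. The anchor with the smallest p was chr1:203258180-203260748 on the long arm, with 11 PETs in shLUC and 43 in shBORIS (ratio 3.50, 1.78 to 7.53; adjusted p = 0.128, exact test). On the proximal short arm, chr1:113256755-113262423 had 75 and 135 and chr1:117395224-117397324 had 37 and 14. On the distal short arm, chr1:24667656-24668337 had 0 and 10 and chr1:27021472-27022750 had 30 and 10. On the long arm, chr1:229390470-229391261 had 11 and 0.

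For interchromosomal PETs, 1 of 3983 anchors passed, higher in shBORIS, against 0.014% of all anchors tested (0% lower). At an unadjusted p under 0.05, 132 were higher and 98 lower, against 3.09% and 2.47% in the genome. The anchor that passed was chr1:204326759-204329945 on the long arm, with 25 PETs in shLUC and 78 in shBORIS (ratio 3.14, 1.98 to 5.14; adjusted p = 0.00115, exact test). Its intrachromosomal PETs numbered 41 and 61. The 78 PETs went to 78 different anchors on 20 chromosomes, at most 7 on any one, and the 25 to 25 anchors on 14 chromosomes, so no single partner made up the difference. With an assumed dispersion of 0.1 it did not pass. With at least 20 summed PETs, chr1:243655821-243657914 passed too, with 15 and 49 PETs (adjusted p = 0.0411, exact test).

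The smallest p in each other direction and segment belonged to anchors that did not pass (adjusted p = 0.626 for each, exact test). On the distal short arm, chr1:27658813-27660099 had 10 interchromosomal PETs in shLUC and 29 in shBORIS, and chr1:9921239-9921897 had 12 and 1. Of the proximal short arm, chr1:117359587-117361196 had 17 and 42, and chr1:112311126-112313143 had 32 and 10. On the long arm, chr1:180322943-180323667 had 10 and 0.

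Contacts between the segments were close to what random ligation predicts from their interchromosomal PETs. There were 2938 such PETs in shLUC and 3075 in shBORIS. The distal and proximal short arm were joined by 534 PETs in shLUC against 511 predicted (ratio 1.05, 0.959 to 1.14). The distal short arm and the long arm were joined by 890 against 930 (0.957, 0.895 to 1.02), and the proximal short arm and the long arm by 1514 against 1503 (1.01, 0.957 to 1.06). In shBORIS the ratios were 1.04, 1.05 and 1.02, with intervals that included 1. Within the distal short arm, PETs over more than 10 Mb numbered 104 in shLUC against 76.3 predicted (1.36, 1.11 to 1.65) and 86 in shBORIS against 82.8 (1.04, 0.830 to 1.28). The difference between the tables was not tested. In shLUC the same ratio was 1.01 within the proximal short arm, 1.04 within the long arm and 1.34 (1.17 to 1.54) on chromosome 9, so the distal short arm was not alone in it. A single called loop joined 2 segments, chr1:35916218-35917472 with chr1:36010361-36011308, 94.0 kb apart over the boundary at 36 Mb, with 1 PET in shLUC and 3 in shBORIS.

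Those 2 anchors are also the nearest on either side of that boundary, with 13 and 5 interchromosomal PETs in shLUC and the same numbers in shBORIS. At the central gap, the last anchor of the short arm, chr1:121482067-121482397, had 5 interchromosomal PETs in shLUC and 3 in shBORIS. The first of the long arm, chr1:142537774-142538468, had 11 and 4.

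With other chromosomes, 0 of 66 combinations of a segment and a chromosome departed from the number its interchromosomal PETs predict, by Fisher's exact test on the summed tables, so 0% of combinations passed. Among pairs of 5 Mb windows, 1 of 25568 with chromosome 1 passed an exact Poisson test, against 0.00483% of 165522 in the genome. At an unadjusted p under 0.05 there were 805, against 2.88% of the pairs in the genome. The pair that passed joined 145 to 150 Mb of the long arm with 90 to 95 Mb of chromosome 2, with 29 PETs against 2.17 predicted (ratio 13.3, 8.94 to 19.2; adjusted p = 4.52e-18, exact Poisson test). Each table gave a like number, 14 in shLUC and 15 in shBORIS. The PETs fell on 13 anchor pairs, of which chr1:149222131-149225439 with chr2:91814441-91819651 had 11, leaving 18 without it. The anchor on chromosome 1 took part in 16 of the 29, and that on chromosome 2 in 18. With each anchor pair counted once, the window pair still passed (adjusted p = 0.0273, exact Poisson test). The window of chromosome 1 begins above the large stretch without anchors, which ended at chr1:142537774.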

How the data were processed

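SMC1 ChIA-PET was measured in 2 libraries per group, and each of the 2 tables was read as the pool of its group. Per the submitters' processing notes, cutadapt 1.8 and Bowtie were used with hg19. The program that defined and scored anchors is not given in the sources used here. Each deposited PET count is an unnormalized whole-number count. The hypergeometric p-value is the authors' own and was not used. The Bayes probability is a fraction from 0 to 1, per the file headers. Lacking a header, the shBORIS table was given the columns of shLUC in their order. Counts were compared with Python 3.11.15, numpy 2.4.6, pandas 2.3.3 and scipy 1.17.1, by two-sided Fisher's exact tests with Benjamini-Hochberg adjustment over the genome, a threshold of 0.05 and at least 10 summed PETs for pairs and anchors. Exact Poisson tests of window pairs were one-sided. Ratios are scaled by the intrachromosomal or interchromosomal total of the table. Expected values for anchor width use 10 classes of width. The tests were tried on simulated data. A first requirement on the share of changed pairs that the pair test recovers was not met there. It was replaced by a record of recovery by fold change and depth. Named regions are, in each segment, the 3 loops with the most PETs, the 2 anchors with the most loops, and the pair and anchors with the smallest p in each direction, with the extreme windows and the anchors beside each boundary. Members, segments and rules were chosen with earlier results of these data known. No genome or annotation of hg19 was used here, so no sequence or gene is named. Columns of unassigned samples numbered 0.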

Additional observations from a re-analysis of the deposited data

Results flagged for a closer look

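The ratio of shBORIS to shLUC differed between segments of chromosome 1 by a test of the difference itself, Fisher's exact test adjusted over 6 comparisons of pooled PETs. For PETs with both ends in the segment, the ratio of the distal short arm was 1.13 times that of the proximal short arm (adjusted p = 0.000229) and 1.12 times that of the long arm (adjusted p = 0.000161, exact test). For interchromosomal PETs, it was 1.06 times that of the proximal short arm (adjusted p = 0.000647) and 1.04 times that of the long arm (adjusted p = 0.00546, exact test). With 1 pooled table per group, the spread between libraries behind these exact tests is not known.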

How the results depend on the processing

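No paired analysis was possible because neither table separates the 2 libraries behind it, and for the same reason no library could be left out. Of 147 alternatives to 47 results, 98 kept the direction and side of the threshold, or moved by less than the interval. Where a value moved, the cause was not tested. For interchromosomal PETs per anchor, distal over proximal short arm, shLUC gave 0.965 per kb, 0.979 by width and 0.897 with the boundary at 40 Mb, and shBORIS gave 1.02 per kb, 1.04 by width and 1.10 by medians. Long over proximal gave 1.07 per kb, 1.05 by width, 1.10 without the top 1% of anchors and 1.09 by medians in shLUC, and 1.09, 1.05, 1.11 and 1.10 in shBORIS. For intrachromosomal PETs, distal over proximal gave 0.999 per kb, 1.03 by width (reversed), 0.992 without the top 1% and 1.00 by medians in shLUC, and 1.12, 1.16, 1.12 and 1.17 in shBORIS. Long over proximal gave 1.18, 1.11, 1.15 and 1.17 in shLUC and 1.20, 1.12, 1.17 and 1.17 in shBORIS, and 1.32 and 1.34 for pairs under 2 Mb. Long over proximal loops gave 1.53 with at least 5 PETs in shBORIS. Median spans of loops of at least 20 kb were 92.0, 115 and 101 kb in shLUC and 79.6, 114 and 98.9 kb in shBORIS. Scaled to the total of both kinds, the intrachromosomal ratio was 1.07 on the proximal short arm (reversed) and 1.08 on the long arm, now past the threshold, and the interchromosomal ratio was 1.01 on the distal short arm, no longer past it, 0.948 on the proximal short arm, now past it, and 0.963 on the long arm (reversed). With pairs of 2 or more PETs, the interchromosomal ratio of the distal short arm was 1.03 and did not pass. Anchors past the interchromosomal test numbered 2 with at least 20 summed PETs and 0 with a dispersion of 0.1. Without the top anchor, the windows at 110 to 115 Mb and 185 to 190 Mb gave 1.11 and 0.602, near the 1.15 and 0.584 with it, and did not pass with fewer PETs. Depth limits single pairs most, with a median of 14 PETs each.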
